A study of Mus musculus with 4 samples.

Results

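Natural killer (NK) cells are 397 of the 15777 cells kept from 4 single-cell libraries of mouse kidney, or 2.52%. They carried no deposited annotation and were chosen by their own counts of unique molecular identifiers (UMIs, each a molecule counted once). A cell was taken when the transcripts of 5 genes of NK cells, Ncr1, Klre1, Gzma, Prf1 and Eomes, summed to 3 UMIs or more with at least 2 of the genes present, and when Cd3d, Cd3e and Cd3g, the CD3 chains of the T cell receptor complex, summed to 1 UMI or fewer. Cells with under 200 genes had been left out beforehand (226 in all libraries). The levels of these 8 genes are therefore a description of the gate and not a result.

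All mice were 9-week-old C57Bl/6 males of the genotype Pax2.rtTA;TetO.Cre;R26.Confetti, a reporter system switched on through Pax2, a gene of kidney tubule and progenitor cells, and all had received anti-GBM serum, an antibody against the glomerular basement membrane that causes crescentic glomerulonephritis. From day 1 they were given 15 mg/kg panobinostat, 10 mg/kg givinostat, 60 mg/kg ruxolitinib or the vehicle (distilled water), and whole kidneys were taken at day 7. Panobinostat and givinostat inhibit histone deacetylases, and ruxolitinib inhibits the kinases JAK1 and JAK2. There were 2 mice in each group by the labels and 1 library per group, without a statement of whether the mice were pooled, and there was no uninjured kidney. The vehicle library was identified as the one whose cell names carry no drug. With 1 library per group no difference between treatments was tested. Intervals are 95% exact intervals for counting error alone and say nothing of the spread between mice, and all 3 drug libraries were set against the same vehicle library.

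NK cells are innate lymphocytes that kill stressed or infected cells without a rearranged antigen receptor. They release perforin and granzymes from granules, engage death receptors, and secrete interferon gamma and chemokines that draw in other leukocytes. Activating and inhibitory receptors set against MHC class I on the target decide whether they fire, and the cytokines that keep them alive signal through JAK kinases and STAT factors.

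The gate selected 126 cells in the panobinostat library, 122 in the givinostat library, 71 in the ruxolitinib library and 78 in the vehicle library. Most cells lay far inside it. The median sum of the 5 gate genes was 41 UMIs in the panobinostat library, 74 in the givinostat library, 43 in the ruxolitinib library and 41 in the vehicle library, and 77.8%, 81.1%, 83.1% and 78.2% of the cells, in that order, had 20 UMIs or more. At the edge, 3, 1, 2 and 0 cells held exactly 3 UMIs, while 1, 1, 0 and 2 cells with 2 UMIs and 3, 6, 2 and 4 cells with a single gate gene fell just outside. A further 41, 79, 66 and 56 cells met the NK count and were outside for their CD3 transcripts.

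The detection of the gate genes follows from the rule and is given as a description. Gzma, which encodes the serine protease granzyme A, was present in 90.5% of the panobinostat, 86.9% of the givinostat, 94.4% of the ruxolitinib and 92.3% of the vehicle NK cells. In cells without a UMI of Ptprc, Coro1a, Laptm5, Lcp1 or Cd52, genes shared by leukocytes, it was seen in 1.11%, 2.37%, 0.756% and 0.962%, although these cells were deeper, with medians of 7227.5, 11286.5, 9180 and 9677 UMIs against 3860, 7976.5, 5137 and 4689 UMIs in NK cells. Ncr1, the activating receptor NKp46, was present in 77.8%, 85.2%, 84.5% and 75.6% of the NK cells, and Eomes, a T-box factor that separates NK cells from tissue-resident type 1 innate lymphoid cells, in 61.1%, 77.0%, 78.9% and 59.0%. The libraries differ in depth, so these shares were not compared between treatments.

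The promoters of the gate genes are shown because their transcripts define the population. Each stretch holds the 250 bases before the first RefSeq start site, read 5′ to 3′ in the direction of the gene, on build GRCm38.p6. Capitals mark TGTGGT, the letters bound by Runx factors, or ACCACA, the same letters on the other strand. Ncr1 lies at chr7:4337465-4337714 on the plus strand, Klre1 at chr6:129577963-129578212 on the plus strand, Gzma at chr13:113100982-113101231 on the minus strand and Prf1 at chr10:61297586-61297835 on the plus strand.
Ncr1: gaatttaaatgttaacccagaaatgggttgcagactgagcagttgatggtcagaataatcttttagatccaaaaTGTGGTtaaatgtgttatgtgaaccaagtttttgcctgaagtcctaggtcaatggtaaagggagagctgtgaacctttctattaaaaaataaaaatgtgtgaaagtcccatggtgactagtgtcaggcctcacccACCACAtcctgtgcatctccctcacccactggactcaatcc
Klre1: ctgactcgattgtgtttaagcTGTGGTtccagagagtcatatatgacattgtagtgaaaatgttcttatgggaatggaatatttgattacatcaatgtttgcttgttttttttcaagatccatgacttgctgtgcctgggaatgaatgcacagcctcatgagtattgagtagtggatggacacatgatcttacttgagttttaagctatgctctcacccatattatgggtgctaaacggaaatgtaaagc
Gzma: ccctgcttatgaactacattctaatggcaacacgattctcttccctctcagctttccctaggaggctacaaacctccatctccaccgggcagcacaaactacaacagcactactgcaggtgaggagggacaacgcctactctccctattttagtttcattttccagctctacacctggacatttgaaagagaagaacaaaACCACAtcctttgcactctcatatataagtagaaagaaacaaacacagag
Prf1: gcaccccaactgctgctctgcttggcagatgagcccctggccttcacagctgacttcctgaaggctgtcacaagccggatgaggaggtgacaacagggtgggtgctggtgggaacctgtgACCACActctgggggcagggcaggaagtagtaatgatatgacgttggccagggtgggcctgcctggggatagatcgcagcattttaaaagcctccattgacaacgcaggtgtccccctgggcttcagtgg
The Runx letters were present in these 4 of the 5 gate genes, not in the Eomes window, and in 14.0% of 32851 windows of the same length. A second listed start of Klre1 had a window without them. Of the other motifs searched on both strands, the T-box letters AGGTGTGA (1.12% of windows), the shorter GGTGTG (16.3%) and the STAT letters TTCNNNGAA (7.02%) were in none of the 5, and the motif of interferon regulatory factors (2.98%) was in Gzma and Eomes. A match describes the sequence only. Runx3, the Runx factor of cytotoxic lymphocytes, was measured in the NK cells at 248, 303, 256 and 204 UMIs per 1000000 UMIs of the NK cells (CPM) in the panobinostat, givinostat, ruxolitinib and vehicle libraries.

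Markers that the gate did not use were mixed for the T cell receptor genes and near 0 for Cd8b1. Klra4 and Klra7, Ly49 receptors of NK cells, and Klrb1c, the NK1.1 antigen, were present in every library, and Cd8b1 was detected in 0%, 0.82%, 0% and 1.28% of the panobinostat, givinostat, ruxolitinib and vehicle NK cells. Trac, the constant chain of the T cell receptor alpha gene, was seen in 7.14%, 22.1%, 9.86% and 6.41%. Trbc1, the constant chain of the beta gene, was seen in 79.4%, 89.3%, 88.7% and 78.2%, with 521, 518, 588 and 384 CPM, a transcript that NK cells are known to make from an unrearranged gene. Trbc2, the other beta constant chain, was seen in 35.7%, 44.3%, 47.9% and 48.7% of the NK cells, with 254, 241, 332 and 264 CPM, against 97.8%, 98.1%, 98.4% and 98.3% of the Cd8 T cells, with 1542, 1427, 1464 and 1466 CPM. The whole T cell list of 13 genes summed to 1064, 1050, 1223 and 821 CPM.

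A part of the gated droplets also held RNA of other cells. The tubule list of 17 genes summed to 11448 CPM in panobinostat, 6453 in givinostat, 3078 in ruxolitinib and 22523 in vehicle NK cells, with every member present except Aqp2, which was at 0 in the ruxolitinib library. The erythroid list summed to 8355, 245, 288 and 3624 CPM, the macrophage or monocyte list to 65.1, 1462, 687 and 708 CPM, and the dendritic cell list to 312, 1454, 1496 and 2459 CPM. The B or plasma cell list was at 1440 CPM in the givinostat cells and at 48.0, 24.6 and 3.88 CPM in the panobinostat, ruxolitinib and vehicle cells, and the neutrophil list was at 1189 CPM in the ruxolitinib cells and at 8.57, 10.5 and 56.3 CPM in the panobinostat, givinostat and vehicle cells. How far these signals sat in few droplets differed by list. The 5 richest cells carried 56%, 64%, 35% and 68% of the tubule UMIs, while the median cell still held 10, 14, 13 and 10. They carried 98%, 48%, 24% and 99% of the erythroid UMIs and 39%, 77%, 86% and 91% of the dendritic cell UMIs.

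**Figure D1:**
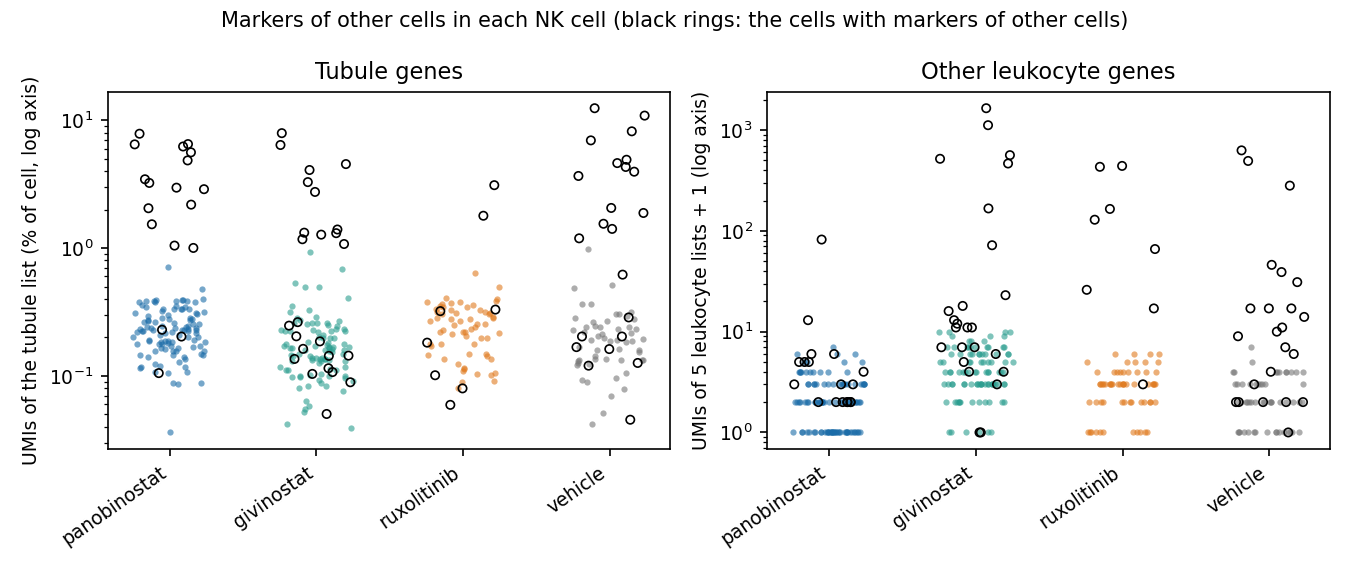
Share of each NK cell's UMIs that came from the tubule list (left, percent of the cell's UMIs, log axis) and UMIs of 5 lists of other leukocytes plus 1 (right, log axis), by library; each point is a cell and black rings mark the 74 cells with markers of other cells. Most cells lie under 1% tubule UMIs. Cells ringed for tubule UMIs stand above the unringed cells on the left. Cells ringed for UMIs of other leukocytes stand above the unringed cells on the right. Cells ringed only for erythroid or endothelial UMIs lie among the unringed cells in both panels.

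For this reason the ratios of most named genes and the counts of most lists are also given without 74 cells that held 10 or more UMIs of other leukocyte lists, 1% or more tubule UMIs, 10 or more erythroid UMIs or 5 or more endothelial UMIs, a rule added after seeing the data. Levels are those of all gated cells unless stated. All limits but that for tubule UMIs are absolute counts, which deeper cells reach more readily, and the givinostat cells were the deepest. The limit for other leukocytes was met by 2 panobinostat, 15 givinostat, 7 ruxolitinib and 11 vehicle cells. The part of depth in this was not tested. The rule left 108 panobinostat, 97 givinostat, 63 ruxolitinib and 55 vehicle cells. The cells left hold 74.4%, 69.9%, 81.0% and 50.8% of the UMIs of the gated cells, so the part left out was largest in the vehicle library. Without them the tubule list stood at 2285, 1795, 2407 and 2237 CPM and the dendritic cell list at 242, 325, 255 and 222 CPM.

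NK cells made up a larger share of the panobinostat and givinostat kidneys than of the vehicle kidney, while the ruxolitinib share did not differ from it beyond counting error. They were 2.87% of 4396 panobinostat cells, 3.51% of 3472 givinostat cells, 1.78% of 3979 ruxolitinib cells and 1.98% of 3930 vehicle cells. This is 1.44 times the vehicle share for panobinostat (95% counting interval 1.08 to 1.94), 1.77 times for givinostat (1.32 to 2.38) and 0.899 times for ruxolitinib (0.643 to 1.26). Without the cells with markers of other cells the ratios were 1.76 (1.26 to 2.47), 2.00 (1.42 to 2.83) and 1.13 (0.775 to 1.65).

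The choice of denominator changed which drug stood highest. Among leukocytes, NK cells were 8.94% in the panobinostat, 6.57% in the givinostat, 4.49% in the ruxolitinib and 4.80% in the vehicle library. Among NK plus T cells they were 20%, 11.7%, 9.57% and 8.26%, which put panobinostat at 2.42 times vehicle (1.81 to 3.25), givinostat at 1.42 times (1.06 to 1.91) and ruxolitinib at 1.16 times (0.828 to 1.62). T cells themselves were 11.5% of panobinostat, 26.5% of givinostat, 16.9% of ruxolitinib and 22.0% of vehicle cells, and all leukocytes were 32.1%, 53.5%, 39.7% and 41.3%. Panobinostat thus had a larger NK share beside a smaller T cell share, while givinostat had a larger share of both. The kept cells started at 2920, 5272, 3817 and 3723 UMIs. Among cells with 5300 UMIs or more only 24, 122, 31 and 28 NK cells remained, and the panobinostat ratio was 0.892 (0.495 to 1.60). With every kept cell thinned to 2900 UMIs instead, NK cells were 2.85%, 3.27%, 1.86% and 1.91% of the panobinostat, givinostat, ruxolitinib and vehicle cells, and the panobinostat ratio was 1.49 (1.11 to 2.02). The panobinostat ratio was thus as large with each cell at 2900 UMIs. Among the cells with the most UMIs its wide interval held both 1 and the ratio of 1.44 of all kept cells. Every library started above 2900 UMIs, so thinning did not bring the libraries to a common start. It therefore cannot show what the lower start of the panobinostat library did to the ratio.

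**Figure D2:**
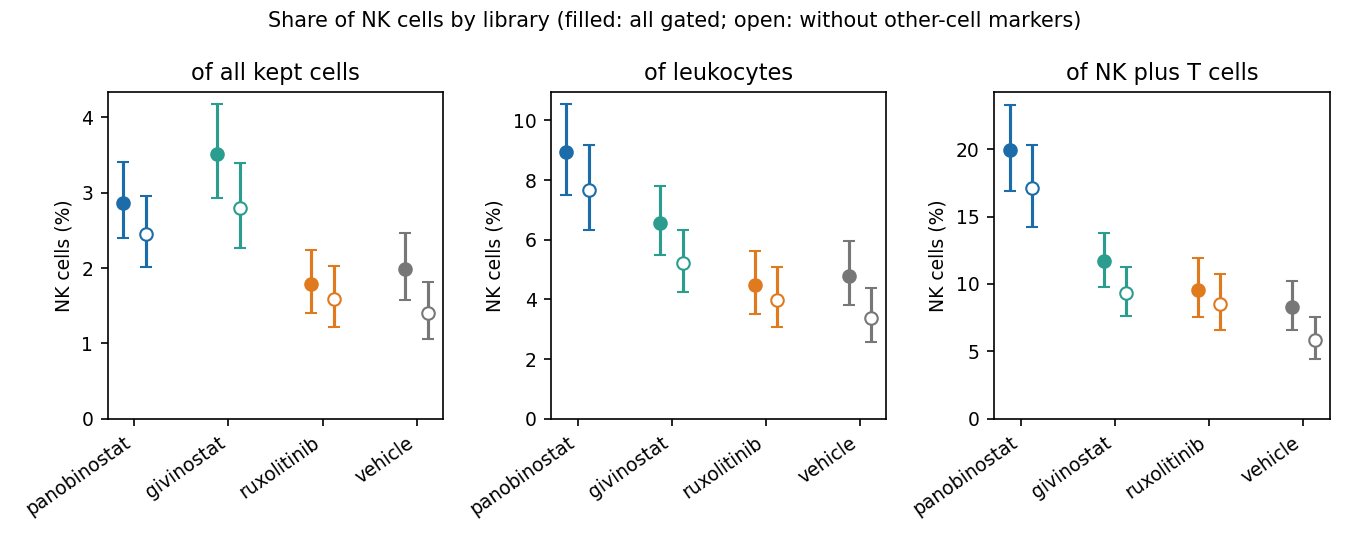
NK cells as a percentage of kept cells, of leukocytes and of NK plus T cells (one panel each) by library; filled symbols are all gated NK cells, open symbols leave out cells with markers of other cells, and bars are 95% exact intervals for counting error. The panobinostat library is highest among leukocytes and among NK plus T cells, and the givinostat library is highest among kept cells.

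Few genes stood far from vehicle with any drug once droplets with other RNA were set aside. Counts were summed over the NK cells of a library and given as CPM, and a gene counted as past 2-fold at a log2 ratio of 1 or more in size, with 20 CPM added to each side, among genes with 100 CPM or more in one of the compared libraries. With panobinostat 11 genes were past 2-fold higher (0.7% of 1571) and 53 lower (3.37%), with givinostat 16 higher (0.973% of 1645) and 88 lower (5.35%), and with ruxolitinib 25 higher (1.43% of 1747) and 126 lower (7.21%). Without the cells with markers of other cells the counts were 10 higher (0.646% of 1549) and 7 lower (0.452%) with panobinostat, 8 (0.505% of 1584) and 6 (0.379%) with givinostat, and 10 (0.607% of 1647) and 9 (0.546%) with ruxolitinib. The median log2 ratio over all these genes was 0.04, 0.08 and 0.18 in all gated cells and 0.01, 0.02 and 0.05 without the mixed cells.

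Granule and death ligand genes stood above vehicle more often than other genes in all gated cells, but with givinostat and ruxolitinib not without the mixed cells. Of the list, 10 of 15 measured members were above vehicle with panobinostat, 10 of 13 with givinostat and 11 of 14 with ruxolitinib, with median log2 ratios of 0.31, 0.19 and 0.44. Over all genes with 30 CPM or more in one of the compared libraries, the minimum used for lists, 49.1%, 54.6% and 58.5% were above vehicle. Without the mixed cells the counts were 10 of 15, 7 of 13 and 8 of 14, the medians 0.13, 0.08 and 0.09, and the shares over all genes 49.2%, 53.3% and 56.1%.

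Gzmb, granzyme B, the protease that starts caspase cleavage in the target, was at 896, 1066, 997 and 669.6 CPM in panobinostat, givinostat, ruxolitinib and vehicle NK cells. All 3 drug libraries were above vehicle, at ratios of 1.34 (1.17 to 1.54), 1.59 (1.41 to 1.80) and 1.49 (1.29 to 1.72). The levels without these mixed cells were 1052, 1257, 1097 and 1025 CPM, and of the ratios 1.03, 1.23 and 1.07 only that of givinostat kept an interval above 1, at 1.23 times vehicle (1.07 to 1.41). Serpinb9, the inhibitor that shields a killer cell from its own granzyme B, was at 879, 817, 955 and 532 CPM. Its ratios stayed above 1 without the mixed cells, at 1.39 (1.17 to 1.65), 1.35 (1.15 to 1.58) and 1.41 (1.18 to 1.69) for panobinostat, givinostat and ruxolitinib.

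Nkg7, a granule membrane protein needed for release, stood at 2572, 1976, 1993 and 1871 CPM. Panobinostat was highest, at 1.37 times vehicle (1.27 to 1.49), and at 1.10 times vehicle (1.00 to 1.2) without the mixed cells. Givinostat and ruxolitinib were at 1.06 and 1.07 times vehicle and, without the mixed cells, at 0.872 and 0.810 times, so their side of vehicle turned. Srgn, serglycin, the proteoglycan that packs granzymes, was at 1073, 1222, 1569.9 and 1110.2 CPM, with ruxolitinib highest at 1.41 times vehicle (1.26 to 1.59) and at 1.07 times vehicle (0.930 to 1.22) without the mixed cells.

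The 5 most abundant secreted products, Ccl5, Ccl4, Ccl3, Xcl1 and Ifng, were highest in the panobinostat or the ruxolitinib library. Of the secreted list, 6 of 8 measured members were above vehicle with panobinostat, 5 of 8 with givinostat and 6 of 7 with ruxolitinib, with median log2 ratios of 0.53, 0.16 and 0.59. These were, without the mixed cells, 6 of 8, 4 of 9 and 4 of 8, with medians of 0.19, -0.05 and 0.07. The shares over all genes with 30 CPM or more were 49.1%, 54.6% and 58.5%, and 49.2%, 53.3% and 56.1% without the mixed cells. The givinostat and ruxolitinib counts without the mixed cells thus fell short of the share over all genes.

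Ccl3, a chemokine for monocytes and lymphocytes, was at 2109, 1358, 1599 and 883 CPM in panobinostat, givinostat, ruxolitinib and vehicle NK cells. With panobinostat it was 2.39 times vehicle (2.14 to 2.67), and 1.81 times vehicle (1.61 to 2.05) without the mixed cells. The ratios of givinostat and ruxolitinib were 1.54 and 1.81, and 1.08 and 1.24 without the mixed cells. Panobinostat thus held the highest level in both sets of cells. Ccl4, a related chemokine, stood at 5206, 3805, 5446 and 3144 CPM. Without the mixed cells its ratios were 1.34 (1.25 to 1.44), 0.965 (0.902 to 1.03) and 1.33 (1.23 to 1.43), with panobinostat and ruxolitinib above vehicle and givinostat beside it.

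Ccl5, a chemokine for T cells and other leukocytes, was at 15265, 10466, 9698 and 10506 CPM. Its ratios of 1.45 (1.40 to 1.5), 0.996 (0.965 to 1.03) and 0.923 (0.886 to 0.962) put panobinostat above and ruxolitinib below vehicle. They were, without the mixed cells, 1.12, 0.849 and 0.758, which left panobinostat the highest and ruxolitinib the lowest library. Xcl1, which calls cross-presenting dendritic cells through XCR1, was at 1600.1, 1577, 1922 and 1167 CPM, and its ratios of 1.37, 1.35 and 1.65 came to 1.11, 1.07 and 1.13 without the mixed cells. Ifng, interferon gamma, which activates macrophages, was named after its values were seen and was at 624, 424, 629.9 and 411 CPM. It was, without the mixed cells, at 771, 468, 711 and 566 CPM, with ratios of 1.36 (1.12 to 1.66), 0.827 (0.682 to 1.01) and 1.26 (1.02 to 1.55).

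**Figure D3:**
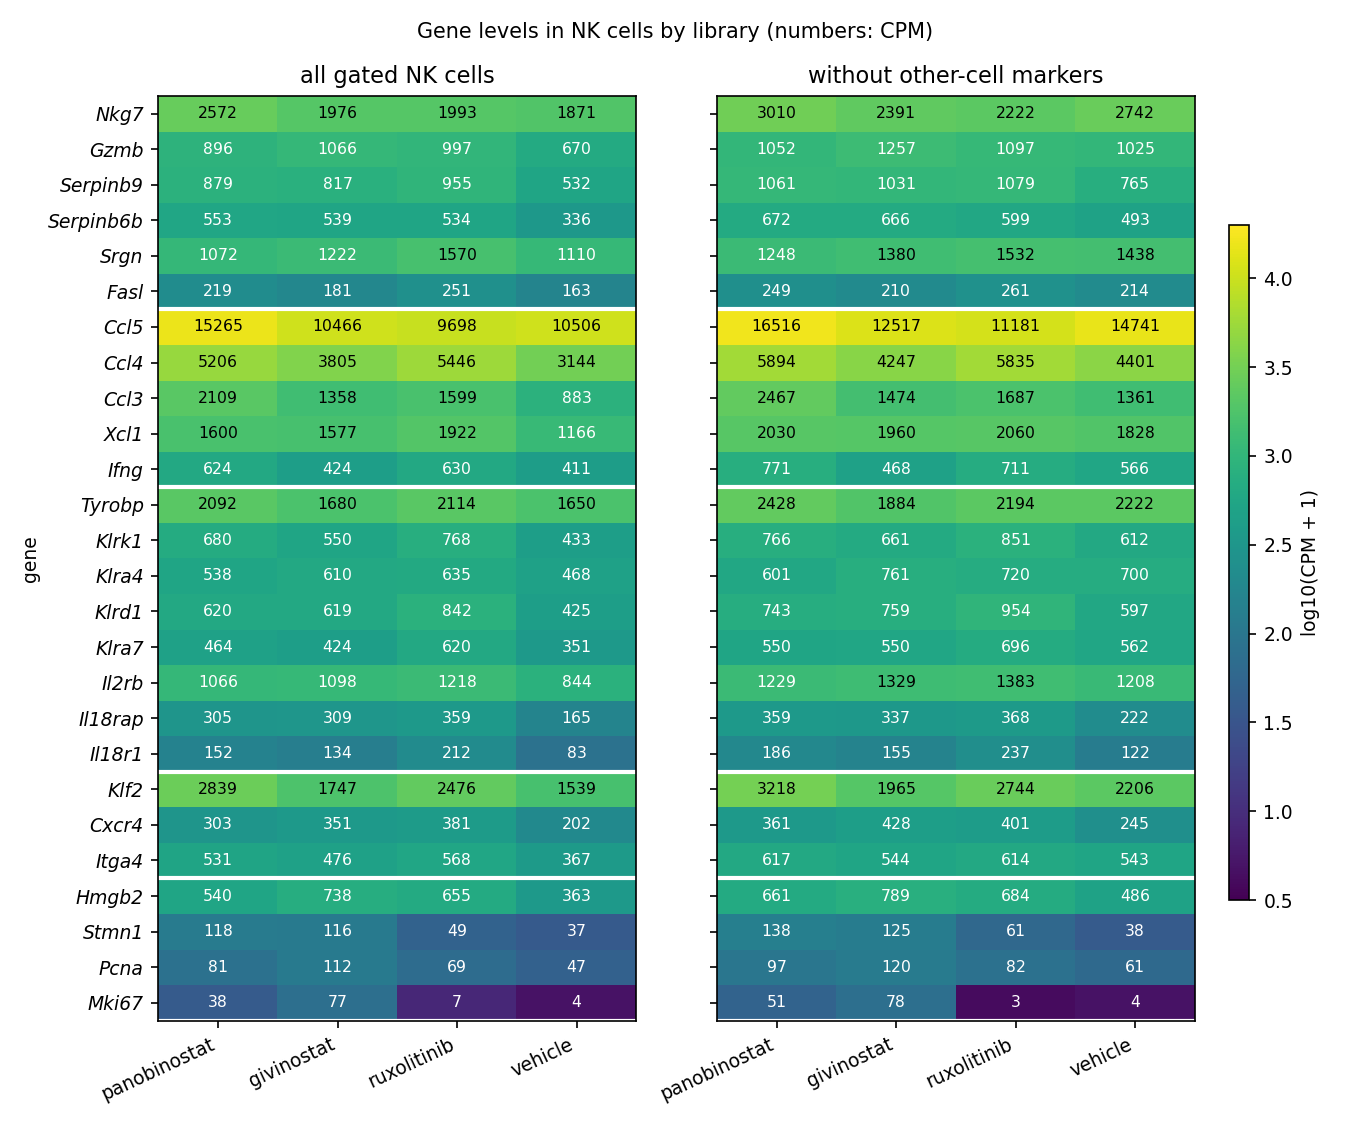
Levels in CPM (printed in each square, color on a log10 scale) of genes of the granule, secreted, receptor, homing and cell cycle groups, separated by white lines, in NK cells of each library, for all gated cells (left) and without cells with markers of other cells (right). Ccl3 is highest in the panobinostat library in both panels, and Stmn1 is higher in the panobinostat and givinostat libraries than in the vehicle library.

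NK cells, 2.52% of all cells, held a large part of the UMIs of several of these genes. They held 67.9% of all Gzmb UMIs in the panobinostat library, 47.0% in the givinostat library, 31.1% in the ruxolitinib library and 41.6% in the vehicle library. In the vehicle library 281 Gzmb UMIs lay in 1 cell that was neither an NK nor a T cell. Without the richest cell outside the NK cells of each library, the NK shares were 70.0%, 48.5%, 33.2% and 63.0%. Cd8 T cells, which include cytotoxic T cells, held 13.0%, 27.8%, 38.7% and 9.53% of the Gzmb UMIs, so in the ruxolitinib library they held more of them than NK cells did.

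For Ifng the NK share was 37.5% with panobinostat, 26.4% with givinostat, 27.5% with ruxolitinib and 19.9% with vehicle. For Xcl1 it was 49.9%, 41.5%, 40.3% and 21.4%, and for Ccl5 44.6%, 34.9%, 26.0% and 31.3%. Fasl, the ligand of the death receptor Fas, had NK shares of 40%, 25.5%, 24.9% and 22.3%. The panobinostat library had the highest NK share for each of these genes, and it was also the library in which NK cells were the largest part of the NK and T cells. Ccl3 came mostly from cells other than NK and T cells, with NK shares of 25.5%, 19.9%, 15.4% and 12.3%, and for Tnf the NK share was 2.09% or less in each library.

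**Figure D4:**
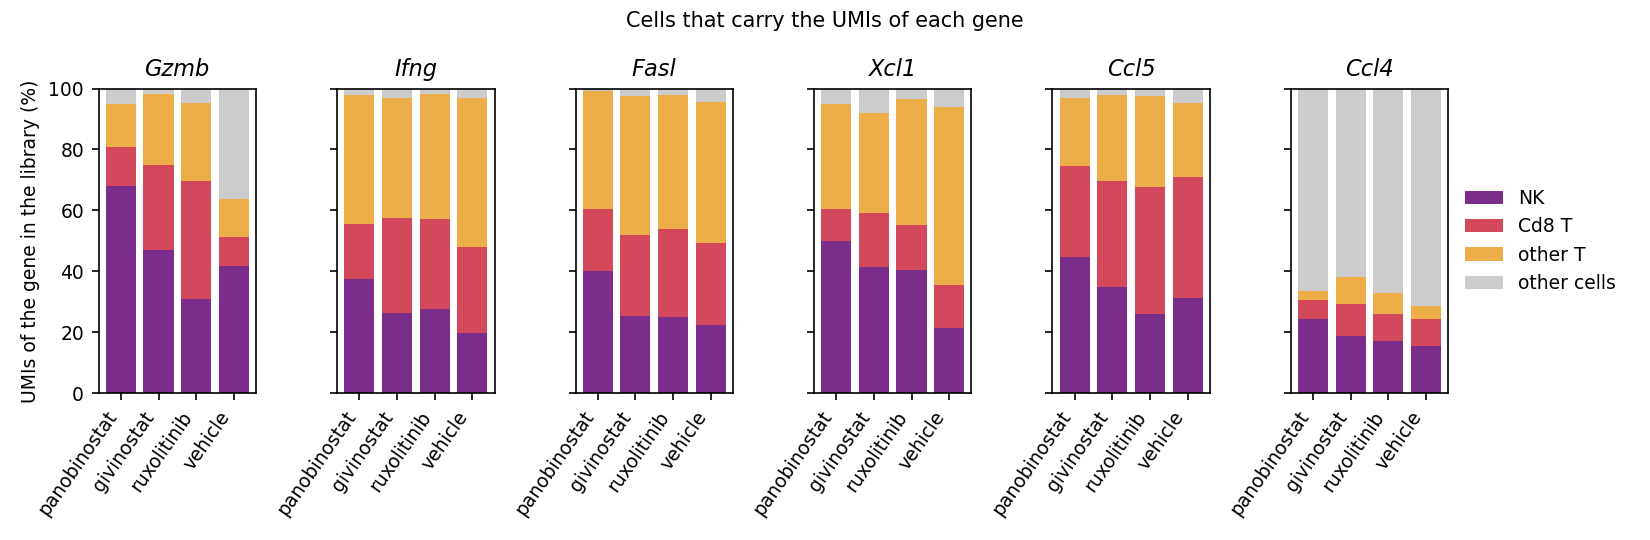
Percentage of the UMIs of 6 effector genes that lay in NK cells, Cd8 T cells, other T cells and all other cells of each library (stacked bars, 100% is the library's UMIs of that gene). The NK part is largest in the panobinostat library for all 6 genes, and the grey part of Gzmb in the vehicle library is mainly 1 cell with 281 UMIs.

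Activating receptors stood somewhat above vehicle in all gated cells. Without the mixed cells they stood close to it with panobinostat and givinostat and somewhat above it with ruxolitinib. Of 20 measured members, 15 were above vehicle with panobinostat, 15 with givinostat and 17 with ruxolitinib, with median log2 ratios of 0.17, 0.15 and 0.42. Without the mixed cells 11, 9 and 14 were above vehicle and the medians were 0.02, -0.01 and 0.21. Over all genes with 30 CPM or more, 49.2%, 53.3% and 56.1% were above vehicle there, and 49.1%, 54.6% and 58.5% in all gated cells. Klrk1, the stress ligand receptor NKG2D, was at 680.1, 549.5, 768 and 433 CPM, with ratios of 1.25 (1.03 to 1.52), 1.08 (0.903 to 1.30) and 1.39 (1.14 to 1.70) without the mixed cells. Tyrobp, the adaptor DAP12 that carries signals of several receptors, was at 2092, 1680.1, 2114 and 1649.8 CPM, and Fcer1g, the adaptor of NKp46 and Fc receptors, at 1569, 1303, 1619 and 1407 CPM. With these cells left out Tyrobp was at 1.09, 0.848 and 0.988 times vehicle, and Fcer1g was below vehicle in all 3 drug libraries, at 0.949, 0.762 and 0.889 times. Klra4, the activating receptor Ly49D, was at 538, 609.9, 635 and 468 CPM, and at 0.858, 1.09 and 1.03 times vehicle without the mixed cells, but Ly49 genes have near-identical copies and the counting could split their reads, so their values are uncertain.

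Inhibitory receptors were more evenly above vehicle. All 10 measured members were above it with panobinostat, all 10 with givinostat and 10 of 11 with ruxolitinib. The median log2 ratios were 0.42, 0.37 and 0.53. Without the mixed cells 7 of 10, 9 of 11 and 9 of 10 were above vehicle, with medians of 0.18, 0.30 and 0.26. Beside this, 49.1%, 54.6% and 58.5% of all genes with 30 CPM or more were above vehicle, and 49.2%, 53.3% and 56.1% without the mixed cells. Klrd1, CD94, the partner chain of the NKG2 receptors for Qa-1, was at 620.2, 619, 842 and 425 CPM. Its ratios without the mixed cells were 1.25 (1.03 to 1.52), 1.27 (1.07 to 1.53) and 1.60 (1.32 to 1.95). Klra7, the receptor Ly49G, stood at 464, 424, 620.1 and 351 CPM, Klra9 at 248, 222, 157 and 126 CPM and Klra1 at 164, 186, 179.6 and 107 CPM, with the same doubt about near-identical copies. The ratios without the mixed cells were 0.979, 0.979 and 1.24 for Klra7, 1.59, 1.5 and 1.03 for Klra9 and 1.11, 1.32 and 1.18 for Klra1.

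Among cytokine receptors, the chains for interleukin 18 stood further from vehicle than the shared chain for interleukins 2 and 15. Il18rap, the accessory chain, was at 305, 309, 359 and 165 CPM, with ratios of 1.85 (1.42 to 2.42), 1.87 (1.47 to 2.40) and 2.18 (1.66 to 2.88) in all gated cells. Without the mixed cells its ratios were 1.62 (1.19 to 2.23), 1.52 (1.14 to 2.05) and 1.66 (1.2 to 2.31). Il18r1, the ligand-binding chain, named after its values were seen, was at 152, 134, 212 and 83.5 CPM, with ratios of 1.52, 1.27 and 1.94 without the mixed cells. Il2rb, the beta chain for interleukins 2 and 15, was at 1066, 1098, 1218 and 844 CPM, and at 1.02, 1.10 and 1.14 times vehicle without the mixed cells. Il2rg, the common gamma chain, was at 315, 355, 349 and 266 CPM, and Ifngr1, a chain of the interferon gamma receptor, at 944, 788, 1073 and 757 CPM. Il2rg was at 1.06, 1.21 and 1.07 times vehicle and Ifngr1 at 1.02, 0.878 and 1.05 times without the mixed cells. Of this list 7 of 11, 12 of 13 and 10 of 13 measured members were above vehicle, and 11, 9 and 10 of 13 without the mixed cells. Of all genes with 30 CPM or more, 49.1%, 54.6% and 58.5% were above vehicle, and 49.2%, 53.3% and 56.1% without the mixed cells.

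The homing and adhesion list was almost wholly above vehicle, with 13 of 14 members in panobinostat, 12 of 12 in givinostat and 13 of 13 in ruxolitinib, and 12 of 13, 14 of 15 and 14 of 15 without the mixed cells. Its median log2 ratios were 0.44, 0.39 and 0.58, and 0.34, 0.33 and 0.45 without the mixed cells, where the medians over all genes with 30 CPM or more were -0.01, 0.03 and 0.07. The shares of all these genes above vehicle were 49.1%, 54.6% and 58.5% in all gated cells, and 49.2%, 53.3% and 56.1% without the mixed cells. The 3 ratios share the vehicle library, so a low vehicle value raises all of them.

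Klf2, a factor that keeps lymphocytes circulating, was at 2839, 1747, 2476 and 1539 CPM in panobinostat, givinostat, ruxolitinib and vehicle NK cells. Without the mixed cells its ratios were 1.46 (1.32 to 1.61), 0.891 (0.809 to 0.982) and 1.24 (1.12 to 1.38), so panobinostat and ruxolitinib were above vehicle and givinostat below. Cxcr4, the receptor for CXCL12, was named after its values were seen. It was at 303, 351, 381 and 202 CPM and at 1.48, 1.75 and 1.64 times vehicle without the mixed cells. The vehicle library was lowest for Cxcr4 in both sets of cells. The integrin chains Itga4 and Itgb1, which pair as VLA-4, were at 531, 476, 568 and 367 CPM and at 319, 386, 502 and 285 CPM, and Selplg, the selectin ligand PSGL-1, at 529, 558, 566 and 454 CPM. Itga4 was at 1.14, 1.00 and 1.13 times vehicle without the mixed cells, Itgb1 at 1.06, 1.27 and 1.49 times and Selplg at 1.00, 1.07 and 1.01 times.

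Transcription factors of NK cells were less uniform. Of 16 measured factors, 12, 13 and 13 were above vehicle, and 10, 11 and 9 without the mixed cells. All genes with 30 CPM or more were above vehicle in 49.1%, 54.6% and 58.5%, and in 49.2%, 53.3% and 56.1% without the mixed cells. Ets1 was at 468, 471, 495 and 305 CPM, and at 1.21, 1.25 and 1.23 times vehicle without the mixed cells. Id2, the inhibitor of E proteins that innate lymphoid cells need, was at 677, 768, 814 and 819 CPM. It was below vehicle in each drug library, with ratios without the mixed cells of 0.685 (0.578 to 0.812), 0.730 (0.629 to 0.848) and 0.886 (0.747 to 1.05).

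**Figure D5:**
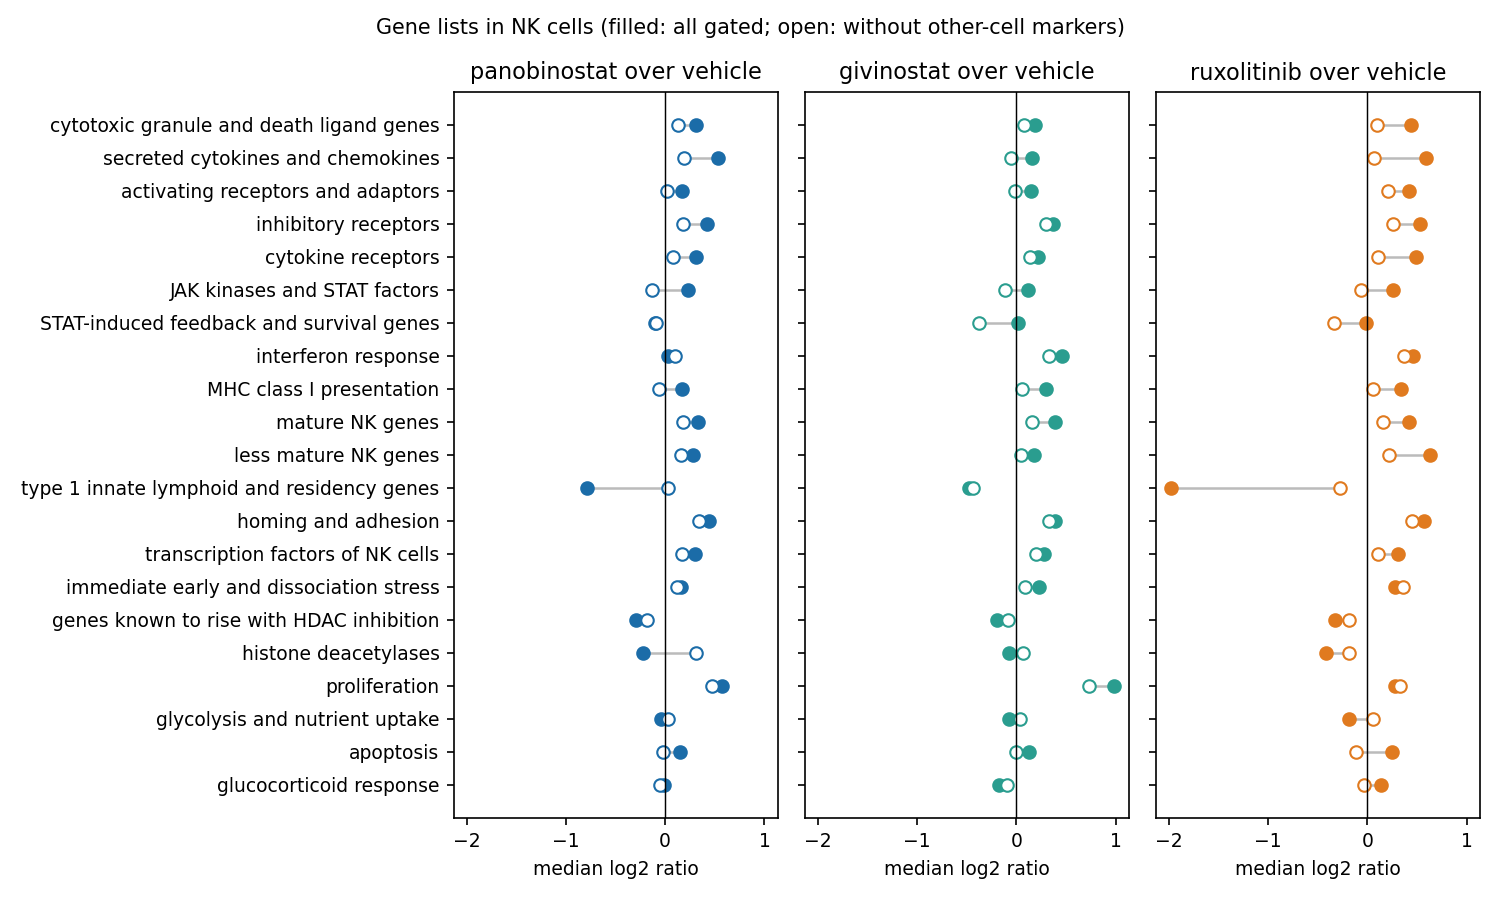
Median log2 ratio to vehicle (x axis, 20 CPM added) of the measured members of 21 gene lists (rows) for each drug, with all gated cells as filled and without cells with markers of other cells as open symbols. Homing and proliferation lists lie above 0 in all 3 panels, and the list of type 1 innate lymphoid and residency genes in the ruxolitinib panel has its filled symbol at -1.98 and its open symbol at -0.27.

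The pathway that ruxolitinib targets was read in a list of kinases and factors and a list of induced genes. Kinases and STAT factors had 5 of 7, 6 of 9 and 8 of 9 members above vehicle, and 3 of 8, 4 of 9 and 4 of 9 without the mixed cells, with medians there of -0.13, -0.11 and -0.06. Among all genes with 30 CPM or more the shares above vehicle were 49.1%, 54.6% and 58.5%, and 49.2%, 53.3% and 56.1% without the mixed cells. Jak1 was at 747, 746, 819 and 573 CPM and Stat4, the factor of the interleukin 12 response, at 223, 193, 226 and 186 CPM. Jak1 was at 1.09, 1.19 and 1.19 times vehicle and Stat4 at 0.927, 0.814 and 0.920 times without the mixed cells. Stat3 was at 255, 305, 367 and 307 CPM, with ratios without the mixed cells of 0.617 (0.476 to 0.800), 0.758 (0.610 to 0.947) and 0.901 (0.699 to 1.16), below vehicle with panobinostat and givinostat.

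Feedback and survival genes that STAT factors induce had medians of -0.10, 0.02 and -0.01, and of -0.09, -0.38 and -0.34 without the mixed cells, where 5, 2 and 4 of 11 members were above vehicle. In that set of cells 49.2%, 53.3% and 56.1% of all genes with 30 CPM or more were above vehicle. Pim1, a survival kinase, was at 1369, 1347, 1671 and 1073 CPM, and Ccnd2, cyclin D2, at 387, 298, 335 and 338 CPM. Pim1 was at 1.11, 1.01 and 1.14 times vehicle and Ccnd2 at 1.03, 0.736 and 0.782 times without the mixed cells. Bcl2, which blocks apoptosis, was at 391, 251, 465 and 347 CPM. It was lowest in the givinostat library, at 0.723 times vehicle (0.598 to 0.876) and at 0.607 times vehicle (0.486 to 0.761) without the mixed cells. Cish, a feedback inhibitor of STAT5 signalling named after its values were seen, was at 37.7, 28.9, 19.7 and 42.7 CPM, with a ratio for ruxolitinib of 0.461 times vehicle (0.177 to 1.08) and 0.374 times vehicle (0.140 to 0.914) without the mixed cells, from few molecules.

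Interferon response genes had medians of 0.03, 0.46 and 0.46, and of 0.10, 0.33 and 0.37 without the mixed cells, with 6 of 10, 8 of 11 and 9 of 11 members above vehicle there. Irf1 was at 139, 179, 169.8 and 124 CPM and at 1.14, 1.32 and 1.22 times vehicle without the mixed cells. Irf7, a factor that amplifies type I interferon, was at 92.5, 82.3, 59.1 and 36.9 CPM, with ratios without the mixed cells of 2.68 (1.38 to 5.72), 2.11 (1.11 to 4.42) and 1.66 (0.778 to 3.78). Ly6a was at 144, 139, 19.7 and 285 CPM in all gated cells and at 25.3, 23.8, 12.2 and 30.6 CPM without the mixed cells, so most of its molecules in the panobinostat, givinostat and vehicle libraries were in the cells left out. MHC class I genes were above vehicle in 10 of 12, 12 of 12 and 13 of 13 members, and in 5 of 12, 6 of 12 and 9 of 13 without the mixed cells. For all genes with 30 CPM or more these shares were 49.1%, 54.6% and 58.5%, and 49.2%, 53.3% and 56.1% without the mixed cells. B2m, the light chain, was at 2407, 3133, 2901 and 2188 CPM, and at 0.954, 1.15 and 1.04 times vehicle without the mixed cells.

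In all gated cells, genes known from other cells to go up with histone deacetylase inhibition were mostly below vehicle. Of 7 measured members 1 was above vehicle with panobinostat, 2 with givinostat and 3 with ruxolitinib. Without the mixed cells only 5 were measured. Of these, 2 were above vehicle with each drug, with median log2 ratios of -0.19, -0.08 and -0.18. Among all genes with 30 CPM or more, 49.1%, 54.6% and 58.5% were above vehicle, and 49.2%, 53.3% and 56.1% without the mixed cells. Gadd45b, a stress gene, was at 375, 475, 487 and 464 CPM, with ratios without the mixed cells of 0.630 (0.508 to 0.781), 0.744 (0.620 to 0.895) and 0.725 (0.581 to 0.906). Txnip, which binds thioredoxin, was at 128, 161, 217 and 215 CPM, and Hexim1, an inhibitor of the elongation factor P-TEFb, at 159, 151, 172 and 142 CPM. Txnip was at 0.725, 0.669 and 1.45 times vehicle and Hexim1 at 1.03, 0.939 and 1.14 times without the mixed cells. Of the deacetylases themselves, Hdac1 was at 70.2, 59.5, 61.5 and 54.3 CPM, and 2 of 4, 2 of 4 and 1 of 3 measured members were above vehicle, and 2 of 3, 2 of 3 and 1 of 2 without the mixed cells.

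The immediate early and dissociation stress list, genes that the preparation of cells can induce, was above vehicle in 12, 17 and 17 of 21 members, with medians of 0.16, 0.23 and 0.28. This was so in 13 of 20, 13 of 20 and 17 of 21 without the mixed cells, with medians of 0.12, 0.09 and 0.36, so ruxolitinib was highest in both sets of cells. The shares over all genes with 30 CPM or more were 49.1%, 54.6% and 58.5%, and 49.2%, 53.3% and 56.1% without the mixed cells. The part of this list in the other results was not tested. Glycolysis and nutrient uptake had medians of -0.04, -0.07 and -0.19, and of 0.02, 0.04 and 0.06 without the mixed cells. Apoptosis genes had medians of 0.15, 0.13 and 0.25, and of -0.02, 0.00094 and -0.11 without the mixed cells, and the glucocorticoid response of -0.01, -0.17 and 0.14, and of -0.05, -0.09 and -0.03 there. The type 1 innate lymphoid and residency list had only 3, 4 and 3 measured members, and its medians of -0.79, -0.48 and -1.98 were 0.03, -0.44 and -0.27 without the mixed cells.

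Cell cycle genes were mostly above vehicle with all 3 drugs, with the highest median in the givinostat cells. Of the proliferation list 6 of 8 members were above vehicle with panobinostat, 9 of 9 with givinostat and 6 of 7 with ruxolitinib, with medians of 0.57, 0.98 and 0.28, and of 0.48, 0.74 and 0.33 without the mixed cells. Over all genes with 30 CPM or more in all gated cells, 49.1%, 54.6% and 58.5% were above vehicle. Stmn1, stathmin, a regulator of microtubules in dividing cells, was at 118, 116, 49.2 and 36.9 CPM. Its ratios were 3.21 (1.91 to 5.64), 3.16 (1.94 to 5.41) and 1.33 (0.676 to 2.64), and 3.61 (1.83 to 7.91), 3.27 (1.71 to 7.03) and 1.59 (0.710 to 3.8) without the mixed cells. One cell held 27.5% of its UMIs in the panobinostat library and 1 cell 21.8% in the givinostat library. Hmgb2, a chromatin protein of cycling cells, was at 539.7, 738, 655 and 363 CPM, with ratios of 1.36 (1.10 to 1.69), 1.63 (1.34 to 1.98) and 1.41 (1.13 to 1.76) without the mixed cells, and Pcna, the replication clamp, at 80.5, 112, 68.9 and 46.6 CPM and, without the mixed cells, at 1.58, 1.96 and 1.34 times vehicle.

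By cell, 3 of 126 panobinostat NK cells, 14 of 122 givinostat cells, 1 of 71 ruxolitinib cells and 0 of 78 vehicle cells held 3 or more UMIs of genes of the cell cycle. The count of 0 allows a share of up to 4.62% by the exact interval. After each cell was thinned to 2900 UMIs the numbers were 2, 5, 1 and 0, so the givinostat library, the deepest, remained highest with a smaller gap.

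NK cells pass from CD27 to CD11b, encoded by Itgam, as they mature, and each library held cells with UMIs of either gene or both. Both genes were low and many cells held neither, so these groups do not place a cell at a stage. Cells with Cd27 alone numbered 28 in the panobinostat, 27 in the givinostat, 16 in the ruxolitinib and 18 in the vehicle library, cells with Itgam alone 27, 48, 16 and 21, cells with both 16, 20, 13 and 2, and cells with neither 55, 27, 26 and 37. Thinned to 2900 UMIs, those with both were 10, 7, 4 and 2, and those with neither 68, 62, 34 and 54. The median sum of the mature list was 2 UMIs in every thinned library, and that of the less mature list was 9, 6, 12 and 6. By list, 9 of 9, 7 of 7 and 6 of 8 mature genes and 8 of 10, 7 of 10 and 9 of 10 less mature genes were above vehicle. With the mixed cells left out, 7 of 9, 7 of 9 and 6 of 9 mature genes and 6 of 10, 5 of 10 and 8 of 10 less mature genes were. Of all genes with 30 CPM or more, 49.1%, 54.6% and 58.5% were above vehicle, and 49.2%, 53.3% and 56.1% with the mixed cells left out.

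Zeb2, a factor of terminal maturation, was at 212, 235, 226 and 161 CPM, with ratios of 1.32, 1.46 and 1.41, and of 2.14 (1.42 to 3.29), 1.88 (1.28 to 2.85) and 1.85 (1.2 to 2.91) without the mixed cells. Ly6c2, a marker of late NK cells, was at 199, 228, 155 and 186 CPM, with 44.1% of its givinostat UMIs in 1 cell. Its ratios were 1.07, 1.23 and 0.832 in all gated cells and 0.711 (0.519 to 0.976), 0.404 (0.296 to 0.552) and 0.568 (0.394 to 0.813) without the mixed cells, so panobinostat and givinostat turned from above to below vehicle. Cd27, named after its values were seen, was at 128, 68.3, 143 and 58.2 CPM, with ratios of 1.65, 0.996 and 1.97 without the mixed cells.

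No gene was among the 8 highest for all 3 drugs, and 5 were so for 2 of them, namely Clec2d, Il1b, Phlda1, Spry2 and Stmn1. Spry2, an inhibitor of receptor tyrosine kinase signalling, was at 622, 592, 544 and 262 CPM. All 3 drug libraries were above vehicle, at 2.37 (1.94 to 2.91), 2.26 (1.87 to 2.74) and 2.08 (1.67 to 2.59) times, and at 2.03, 1.96 and 1.57 times without the mixed cells. It was spread over the population, with UMIs in 105 panobinostat, 112 givinostat, 58 ruxolitinib and 49 vehicle NK cells. Clec2d, which encodes a ligand of inhibitory NK receptors, was at 117, 82.3, 145 and 48.5 CPM, with ratios of 2.79 (1.44 to 5.94), 1.70 (0.880 to 3.59) and 3.76 (1.94 to 7.99) without the mixed cells. Phlda1 was at 117, 121, 118 and 48.5 CPM, with ratios of 2.12, 2.29 and 2.06 without the mixed cells.

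With panobinostat, Icam1, the adhesion ligand of LFA-1, and Nabp1, a protein that binds single-stranded DNA, were among the highest without the mixed cells. Icam1 stood at 472, 343, 346 and 222 CPM there, and panobinostat was 2.13 times vehicle (1.58 to 2.90). Nabp1 stood at 352, 250.2, 243 and 145 CPM there, and panobinostat was 2.42 times vehicle (1.69 to 3.55). For both genes the other drug libraries lay between panobinostat and vehicle. Hes1, a target of Notch signalling, was at 125, 84.0, 106 and 38.8 CPM in all gated cells, with ratios of 2.11 (1.14 to 4.13), 1.33 (0.733 to 2.59) and 1.99 (1.04 to 4.0) without the mixed cells. Arl5c was at 109.7, 97.1, 93.5 and 38.8 CPM, again higher in all 3 drug libraries, and at 2.41, 2.21 and 2.14 times vehicle without the mixed cells.

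With givinostat, Cma1, which encodes a chymase, was at 72.0, 113, 91 and 29.1 CPM. The givinostat level was 3.88 times vehicle (2.27 to 7.13) and 3.18 times vehicle (1.71 to 6.57) without the mixed cells, with UMIs in 50 givinostat and 9 vehicle cells. Dut, which keeps uracil out of DNA, was at 71.3, 104, 54.7 and 22.9 CPM without the mixed cells, with givinostat 4.53 times vehicle (1.99 to 12.7), and 2.55 times vehicle (1.57 to 4.33) in all gated cells. Cxcl10, an interferon-induced chemokine, was at 145 CPM in givinostat and 17.5 CPM in vehicle cells, and givinostat was 5.69 times vehicle (2.35 to 18.0) without the mixed cells, but 40.4% of its givinostat UMIs lay in 1 cell. Txndc5 and Il1b were likewise carried by 1 cell in the givinostat library, with 69.6% and 92.4% of their UMIs.

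With ruxolitinib, Dennd1b, a regulator of membrane traffic, was at 161 CPM against 53.5 CPM in vehicle cells without the mixed cells, or 3.01 times vehicle (1.65 to 5.87). Arid4b stood at 234 CPM in ruxolitinib and 99.4 CPM in vehicle cells there, or 2.35 times vehicle (1.49 to 3.83). Strn3 was 6.76 times vehicle (2.41 to 26.2) there, but only 1.59 times vehicle (0.970 to 2.64) in all gated cells. Gpr171, a receptor of lymphocytes, was at 165 CPM against 58.2 CPM in all gated cells, or 2.83 times vehicle (1.82 to 4.51), and 1.99 times vehicle (1.22 to 3.34) without the mixed cells. Ttr, Cst3 and Cxcl2 were also among the highest, with 91.2%, 63.3% and 38.5% of their ruxolitinib UMIs in 1 cell.

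Among the genes furthest below vehicle in all gated cells were many tubule genes. Klk1, tubule kallikrein, was at 132, 329.9, 61.5 and 538 CPM, with 88.8% of its vehicle UMIs in 1 cell. Hsd11b2, the cortisol-inactivating enzyme of the collecting duct, was at 0, 6.13, 4.92 and 116 CPM, with 70.0% of its vehicle UMIs in 1 cell. Hsd11b2, Fxyd4, Cdh16 and Capg were among the lowest for all 3 drugs without the mixed cells. Of the Fxyd4 UMIs of the vehicle cells 97.1% lay in 1 cell, and all 34 remained without the mixed cells, so that set still held the cell they came from. Rgs16 and Lgals3 were also low there, and the vehicle UMIs of Rgs16, Capg and Lgals3 lay in 19, 24 and 43 cells of all those gated. Rgs16, a brake on signalling by chemokine and other G protein-coupled receptors, was at 69.0, 153, 57.7 and 229 CPM without the mixed cells, with ratios of 0.301 (0.187 to 0.474), 0.665 (0.485 to 0.922) and 0.252 (0.142 to 0.428). Capg, an actin-capping protein, was at 43.7, 37.5, 33.4 and 103 CPM there, with ratios of 0.424 (0.223 to 0.790), 0.364 (0.209 to 0.636) and 0.324 (0.145 to 0.674), and Lgals3, galectin 3, at 117, 111, 139.8 and 241 CPM, with ratios of 0.487 (0.330 to 0.716), 0.462 (0.331 to 0.649) and 0.580 (0.388 to 0.862).

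Cd8 T cells, with CD3 and Cd8 transcripts, are the other killer population and numbered 178 in the panobinostat, 267 in the givinostat, 193 in the ruxolitinib and 233 in the vehicle library. Of 1403 genes with a mean of 100 CPM or more, 67 (4.78%) were at least 2-fold higher in NK cells than in Cd8 T cells in all 4 libraries and 33 (2.35%) at least 2-fold lower. The populations were chosen by their own genes, so these counts describe the gates and are no test, and the genes given here were chosen after their values were seen. Klra4 was at 538, 609.9, 635 and 468 CPM in NK cells against 2.90, 1.55, 0.768 and 7.16 CPM in Cd8 T cells. Irf8, a factor shared with myeloid cells, was at 1549, 1460.4, 1304 and 1050.1 CPM against 13.5, 82.0, 39.9 and 14.9 CPM, and Spry2 at the levels above against 2.90, 7.74, 11.5 and 4.78 CPM. These genes were higher in NK cells in every library. Ccr7, the lymph node homing receptor, was lower in NK cells, at 13.7, 16.6, 9.84 and 5.82 CPM against 341, 356, 339 and 184 CPM. So were Bcl11b, a factor of T cell commitment, at 8.57, 7.88, 17.2 and 1.94 CPM against 219, 216, 272 and 223 CPM, and Il7r, the interleukin 7 receptor, at 22.3, 19.3, 9.84 and 33.0 CPM against 249, 217, 339 and 215 CPM.

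Gzmb stood further from vehicle in Cd8 T cells than in NK cells. In Cd8 T cells it was at 96.7, 278, 387 and 47.2 CPM, with ratios of 2.05 (1.51 to 2.79), 5.90 (4.67 to 7.54) and 8.21 (6.46 to 10.5). The ratios in all gated NK cells were 1.34, 1.59 and 1.49. Without the mixed cells the NK levels were closer together, at 1052, 1257, 1097 and 1025 CPM. Cd8 T cells with markers of other cells were not left out of these values. Il18rap in Cd8 T cells was at 33.9, 32.1, 37.6 and 33.4 CPM, with ratios of 1.01 (0.644 to 1.57), 0.960 (0.676 to 1.37) and 1.13 (0.751 to 1.68), intervals that all include 1. Klf2 in Cd8 T cells was at 1452, 1214, 1414 and 1156 CPM, with ratios of 1.26 (1.17 to 1.34), 1.05 (0.991 to 1.11) and 1.22 (1.15 to 1.30), so panobinostat and ruxolitinib were the higher libraries in both populations. The difference between the populations' ratios was not tested, since there is 1 library per group.

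Tpm3-rs7, a tropomyosin-like gene, split the libraries across drug classes. It was at 8.57, 88.4, 157 and 5.82 CPM in panobinostat, givinostat, ruxolitinib and vehicle NK cells, and at 9.67, 97.5, 111 and 5.97 CPM in Cd8 T cells. Gm10036, a predicted gene named after its values were seen, ran the other way, at 49.7, 17.5, 4.92 and 62.1 CPM in NK cells and at 56.1, 12.8, 13.1 and 80.0 CPM in Cd8 T cells. The givinostat and ruxolitinib libraries thus stood together against the panobinostat and vehicle libraries in both cell types, and treatment, animal and library preparation cannot be told apart here. Both genes may share reads with similar genes, so their counts are uncertain.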

How the data were processed

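Single cells of whole kidneys were measured by droplet RNA sequencing with molecular identifiers. The deposited values are raw UMI counts per gene and cell, made by the authors with Cell Ranger 3.0.1 on mm10, per the submitters' processing notes; 16519 of 16706 gene symbols matched GENCODE vM21. No deposited annotation names cell types, so NK cells were gated as described, and UMIs were summed over the NK cells of a library and divided by their total. NK sums held 583700 UMIs in the panobinostat, 1142822 in the givinostat, 406390 in the ruxolitinib and 515211 in the vehicle library, and 19 cell barcodes were shared between libraries, none of them in an NK cell. No doublet caller was run; cells with markers of other cells were left out in an alternative instead.

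With 1 library per group no test between groups was made and no p-value is given. Shares have Clopper-Pearson intervals and ratios conditional binomial intervals, at 95%, for counting error only; the calculation was tested on simulated data. Genes were named as the 8 highest and 8 lowest log2 ratios per drug, without gate, ribosomal, mitochondrial, predicted, sex-linked and other cells' marker genes, plus up to 4 members of each list by mean level. The members and lists were chosen with earlier results of these data known. Alternatives changed the gate, cell filter, depth, denominator, pseudocount, minimum level and scaling (edgeR 4.0.16 TMM totals, DESeq2 1.42.0 size factors, R 4.3.3); other steps used Python 3.11.15, numpy 2.4.6, scipy 1.17.1 and pandas 2.3.3. RefSeq promoter windows are on GRCm38.p6.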

Additional observations from a re-analysis of the deposited data

Results flagged for a closer look

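For a few values NK cells and Cd8 T cells stood on opposite sides of vehicle under the same drug, with counting intervals that exclude 1 in both. Only a short list of genes was compared in this way. For a gene, the NK interval also had to exclude 1 without the cells with markers of other cells. Cd8 T cells were not filtered for such markers. Xcl1 and B2m with panobinostat and Fcer1g with ruxolitinib met the rule in all gated cells but not without those cells. The difference was not tested, because each treatment has 1 library. With panobinostat the share of kept cells was 1.44 times vehicle for NK cells and 0.683 times for Cd8 T cells. Of the 3 denominators this held for kept cells only: among leukocytes the Cd8 T ratio was 0.881 (0.721 to 1.08), and among NK plus T cells it was 1.14 (0.935 to 1.40), on the same side as NK cells. In the same library Stmn1 was at 3.21 times vehicle in NK cells and at 0.600 times in Cd8 T cells, and Cd69, an early activation and retention marker, at 1.99 times in NK cells and 0.853 times in Cd8 T cells. With ruxolitinib Ccl5 was at 0.923 times vehicle in NK cells and at 1.19 times in Cd8 T cells. Without the cells with markers of other cells the NK values were 1.76 for the share, 3.61 for Stmn1, 1.54 for Cd69 and 0.758 for Ccl5, each on the same side of vehicle.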

How the results depend on the processing

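No paired analysis was possible because there is 1 library per group, and for the same reason no replicate could be left out. Of the NK shares of kept cells, 27 alternative values stayed within the counting interval. Among cells of 5300 UMIs or more the ratio was 0.892 (0.495 to 1.60) for panobinostat and 3.59 (2.36 to 5.62) for givinostat. As a share of NK plus T cells the ratio was 2.42 for panobinostat. Too few cells passed the floor of 5300 UMIs in 3 libraries for gene values. Counts of genes past 2-fold depended on the cells and thresholds used. Without cells with markers of other cells (added after seeing the data) 7 genes were lower with panobinostat, 8 higher and 6 lower with givinostat, and 10 higher and 9 lower with ruxolitinib; higher calls were then 58.8%, 57.1% and 52.6% of all calls, against 17.2%, 15.4% and 16.6% in all gated cells. Thinned to 2900 UMIs, 20, 37 and 45 genes were lower, and higher calls were 39.4%, 31.5% and 40.0%. With the mean over cells, 16 were lower with panobinostat, 8 higher and 23 lower with givinostat, and 13 higher and 38 lower with ruxolitinib, with higher calls at 33.3%, 25.8% and 25.5%. Leaving out cells with other leukocyte markers gave 15 lower with panobinostat, and TMM totals 17 higher. The smaller pseudocount gave 22, 25 and 43 higher, and the larger one 5, 10 and 9 higher and 29 lower with panobinostat. A lower minimum level gave 20 and 29 higher with panobinostat and givinostat and 99, 172 and 253 lower, and no minimum 38, 47 and 62 higher and 152, 207 and 388 lower, and between NK and Cd8 T cells 101 higher and 51 lower. Of the log2 ratios checked that were 1 or more in size in all gated cells, the following changed sign. Smaller ratios that changed sign are not listed here. Without cells with markers of other cells these were, with panobinostat, Chil3 at 0.16, Cyr61 at 0.43, Ifi27l2a at 0.85, Ifitm3 at 0.29 and Tmem176a at 0.15, with givinostat Acy3 at 0.16, Chil3 at 0.0875, Il1b at -0.38, Nudt19 at 0.45 and Slco1a1 at 0.0698, and with ruxolitinib Cxcl2 at -0.76 and Il1b at -0.26. Without cells with other leukocyte markers they were Chil3 at 0.12, Ifi27l2a at 0.77 and Klk1 at 0.91 with panobinostat, Chil3 at 0.0782 and Il1b at -0.18 with givinostat, and Cst3 at -0.0703, Cxcl2 at -0.53, Il1b at -0.13 and Klk1 at 0.00036 with ruxolitinib. Thinned cells gave Chil3 at 0.19 and Ifi27l2a at 0.23 with panobinostat and Txndc5 at -0.0271 with givinostat, and the stricter cell filter gave Klk1 at 0.51 with panobinostat and 0.0442 with ruxolitinib. The cause was not tested. Depth limits low genes: 1 UMI was worth 1.71, 0.875, 2.46 and 1.94 CPM in the panobinostat, givinostat, ruxolitinib and vehicle libraries.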
